A study of Mus musculus with 7 samples.

Results

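Splenic CD4+CD25+ cells, the cells the study calls Tregs, were sequenced from wild-type mice of 18 months (aged, n = 3) and of 8 weeks (young, n = 4). The libraries were biological replicates for which the labels give no treatment and no difference other than age. The mice were male C57BL/6 by the study's methods, which give a slightly older age for the young group than the labels do. The study's methods name a regulatory T cell isolation kit only for Tregs that were to be transfused and do not say whether it also served for sequencing. Both groups are bulk RNA in which other cells also left RNA. A set of 9 genes was described: Drc1, Rln3, Trpm1, Itih5, Sorcs2, Lad1, Itm2a, Nsg2 and Tmem64. They were chosen by measured values, namely lower counts in the aged than in the young libraries, so their difference between the ages is given as a description with no test. The 9 genes are part of 25469 genes with a count in at least 1 library. All 9 passed the filter on low counts, which left 13904 genes.

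Tregs are CD4 T cells that carry the transcription factor Foxp3 and the interleukin 2 receptor chain CD25, and they restrain other immune cells. With age, the spleen holds fewer naive and more antigen-experienced T cells. Most of the 9 genes are better known outside T cells: Drc1 in motile cilia, Trpm1 in the retina and in pigment cells, Rln3, Sorcs2 and Nsg2 in neurons, Itih5 in extracellular matrix and Lad1 in basement membrane. Itm2a has been studied in T cell development, and Tmem64 in calcium handling.

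The label under which the genes were grouped, near loss in aged cells, held for 1 of the 9. Drc1 kept 2.33% of its mean young level, a share that rests on 10 aged reads in all. The other 8 kept between 17.7% (Trpm1) and 37.0% (Tmem64), so they are called here genes with lower levels in aged Tregs. All 9 had every aged library under every young library. Among all 13904 genes tested, 14.4% had every aged library under every young one and 15.5% had every aged library above. Of all genes tested, 16.7% differed between the ages at an adjusted p-value under 0.05 by edgeR's quasi-likelihood test with Benjamini-Hochberg adjustment, 6.94% lower and 9.8% higher in aged Tregs. Because the same contrast chose the 9 genes, nothing was read from their count against these shares. In bulk RNA, fewer cells that carry a transcript and less of it per cell cannot be told apart.

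The promoters of 3 of the genes are shown first, because they carry the motif matches of the gene with the largest difference (Drc1), of the gene whose level was steadiest among young libraries (Rln3) and of the gene known from T cells (Itm2a). Each run covers 250 bases before and 50 bases after the RefSeq start site in GRCm38.p6, read 5′ to 3′ on the strand of the gene. Capitals mark matches to the 10 motifs searched. The Drc1 window is chr5:30281143-30281442 on the plus strand, the Rln3 window chr8:84044930-84045229 on the minus strand and the Itm2a window chrX:107403311-107403610 on the minus strand.
Drc1: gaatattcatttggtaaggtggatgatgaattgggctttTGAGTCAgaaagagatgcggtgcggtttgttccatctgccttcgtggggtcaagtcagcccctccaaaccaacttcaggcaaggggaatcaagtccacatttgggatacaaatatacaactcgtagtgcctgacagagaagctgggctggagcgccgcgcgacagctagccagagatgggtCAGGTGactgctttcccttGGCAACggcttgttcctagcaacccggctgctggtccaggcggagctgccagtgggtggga
Rln3: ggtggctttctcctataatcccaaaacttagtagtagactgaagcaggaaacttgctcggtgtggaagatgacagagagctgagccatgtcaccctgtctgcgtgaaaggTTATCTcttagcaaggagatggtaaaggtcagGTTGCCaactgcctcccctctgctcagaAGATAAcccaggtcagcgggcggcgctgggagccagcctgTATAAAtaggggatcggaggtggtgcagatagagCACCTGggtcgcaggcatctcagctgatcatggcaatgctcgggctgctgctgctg
Itm2a: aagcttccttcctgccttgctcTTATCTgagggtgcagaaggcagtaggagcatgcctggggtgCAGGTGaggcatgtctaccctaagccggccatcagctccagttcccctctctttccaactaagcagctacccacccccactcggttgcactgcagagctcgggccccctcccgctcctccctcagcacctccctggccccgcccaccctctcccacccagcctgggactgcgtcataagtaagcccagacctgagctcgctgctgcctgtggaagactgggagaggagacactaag

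The motifs were short words searched on both strands. They were CTTTGA for TCF and LEF factors, AGATAA for GATA factors, TGTGGT for RUNX, CAGGTG for E proteins, TGTTTAC for FOX, TGANTCA for AP-1, GTTGCC for RFX, CCGGAAG for ETS, TATAAA for the core promoter box and TGACGTCA for CREB. The RefSeq table held 9 start sites of 7 of the genes, and Sorcs2 and Tmem64 were not matched. In the Drc1 window, TGAGTCA began 211 bases before the start, CAGGTG 30 bases before it and the reverse complement of the RFX word, GGCAAC, 11 bases before it. RFX factors are known regulators of cilium genes. In the Rln3 window, the reverse complement of the GATA word, TTATCT, lay 140 bases before the start and AGATAA 80 bases before it. GTTGCC lay 108 bases, TATAAA 40 bases and the reverse complement of the E protein word 6 bases before the start. The Itm2a window held the reverse complement of the GATA word, TTATCT, at 228 bases and CAGGTG at 186 bases before the start. None of the 10 words was shared by all 7 genes.

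The E protein word was found in 4 of the 7 genes (Drc1, Rln3, Itm2a and Nsg2). These were 4 of the 9 windows, and 20.2% of all 32851 promoter windows of this length held it. The GATA word was also found in 4 genes (Rln3, Trpm1, Lad1 and Itm2a) and 4 of the 9 windows, against 11.2% of all windows. The RFX word stood in Drc1 and Rln3, 2 of the 9 windows, against 12.5% of all windows. Trpm1 had the TCF and LEF word at both of its start sites, against 16.0% of windows. The AP-1 word stood in Drc1 alone (7.81% of all windows) and the core promoter box in Rln3 alone (13.6%). The words for RUNX, FOX, ETS and CREB, found in 16.8%, 3.65%, 8.86% and 1.79% of all windows, were in none of the 9 windows. A match describes letters in a window and is not a measured binding site.

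Drc1 encodes a subunit of the nexin-dynein regulatory complex, which links neighbouring microtubule doublets in motile cilia. The gene (ENSMUSG00000073102) lies at chr5:30281388-30366695 in GRCm38, the plus strand. It had 4, 3 and 3 reads in aged replicates 1 to 3 and 157, 225, 171 and 146 reads in young replicates 1 to 4. Scaled to library size with TMM factors, these were 0.350, 0.302 and 0.281 counts per 1000000 (CPM) in aged and 13.7, 15.8, 13.5 and 10.5 CPM in young libraries. The limit of detection was taken as 3 reads, which is 0.262 to 0.302 CPM in the aged libraries, so aged replicates 2 and 3 lay at this limit and aged replicate 1 was 1 read above it. Drc1 passed the filter on low counts through its young libraries. Here and for the other genes, means are given ± SD over the aged (n = 3) and young (n = 4) libraries. The mean was 0.311 ± 0.0352 CPM in aged and 13.4 ± 2.19 CPM in young Tregs, a fitted log2 fold change of -5.38 (SE 0.266). Pooled over libraries, 10 aged against 699 young reads gave a ratio of 42.8, with an exact 95% counting interval of 23.1 to 89.7. Intervals of this kind cover counting error only. Among the 13904 genes tested, Drc1 ranked 4 by the size of its lower aged level.

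**Figure D1:**
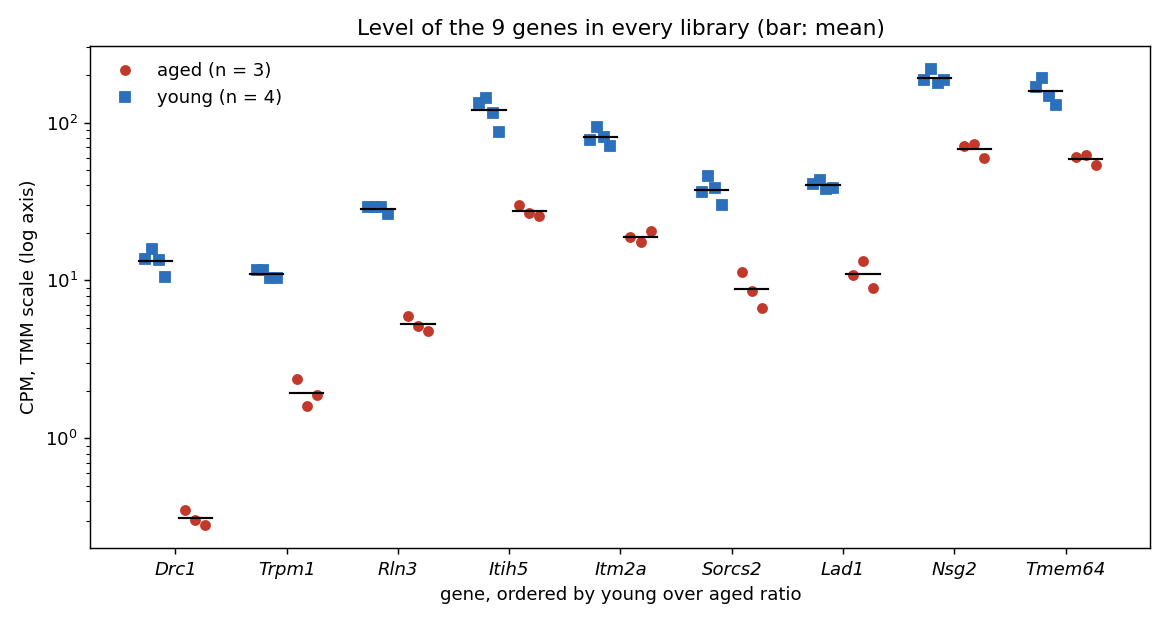
Level of each of the 9 genes in every library, in CPM on a log axis, with aged libraries as red circles (n = 3), young libraries as blue squares (n = 4) and the mean as a bar. The aged and young points of a gene do not overlap, and the ratio of the young to the aged mean runs from 43.0-fold for Drc1 to 2.7-fold for Tmem64.

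A pair of the genes encodes secreted proteins. Rln3 (relaxin 3, ENSMUSG00000045232, chr8:84042929-84045000, minus strand) is a peptide of the insulin superfamily best known as a neuropeptide. Its levels were 5.94, 5.14 and 4.77 CPM in aged and 29.1, 29.1, 29.1 and 26.3 CPM in young libraries, from 51 to 68 aged and 333 to 416 young reads. The young libraries were close together, with a coefficient of variation of 4.93%, the smallest of the 9 genes, and replicate 4 was the lowest. Means were 5.28 ± 0.598 CPM and 28.4 ± 1.4 CPM, so that 18.6% of the young level remained, a log2 fold change of -2.42 (SE 0.131).

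Itih5 (ENSMUSG00000025780, chr2:10153571-10256529, plus strand) is a heavy chain of the inter-alpha-trypsin inhibitor family, whose members bind hyaluronan and stabilise extracellular matrix. It had 29.9, 26.8 and 25.7 CPM in aged and 134, 143, 115 and 86.5 CPM in young libraries. The young libraries were the most scattered of the 9 genes, with a coefficient of variation of 20.8%, while the aged ones lay within 7.85%. Means of 27.5 ± 2.16 CPM and 119 ± 24.9 CPM left 23.0% of the young level, a log2 fold change of -2.12 (SE 0.179). The lowest young library was still 2.9 times the highest aged one.

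The next genes encode a channel and a receptor of the cell surface. Trpm1 (ENSMUSG00000030523, chr7:64153835-64269775, plus strand) is a cation channel that ends the glutamate signalling cascade of retinal ON bipolar cells and is also made by melanocytes. It had 2.36, 1.61 and 1.87 CPM in aged and 11.7, 11.6, 10.3 and 10.4 CPM in young libraries. Its aged counts were low, at 16 to 27 reads, against 131 to 166 in young libraries. Means of 1.95 ± 0.38 CPM and 11.0 ± 0.753 CPM left 17.7%, a log2 fold change of -2.49 (SE 0.194). Mir211, a microRNA gene within Trpm1, had 0 reads, and 0.0814% of the exon bases of Trpm1 were shared with another gene.

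Sorcs2 (ENSMUSG00000029093, chr5:36017180-36398139, minus strand) is a sorting receptor with a VPS10P domain that binds precursors of neurotrophins. It had 11.3, 8.56 and 6.64 CPM in aged and 36.3, 45.6, 38.4 and 29.8 CPM in young libraries. The aged libraries varied more than for any other of the 9 genes, with a coefficient of variation of 26.3%, and the lowest young library was 2.65 times the highest aged one. Means were 8.83 ± 2.32 CPM and 37.5 ± 6.51 CPM, a log2 fold change of -2.09 (SE 0.216) with 23.5% left.

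Membrane proteins of the secretory and endosomal routes made up another 3. Itm2a (ENSMUSG00000031239, chrX:107397099-107403376, minus strand) is an integral membrane protein with a BRICHOS domain and a known target of Gata3 in T cells. It had 18.7, 17.4 and 20.6 CPM in aged and 77.3, 93.5, 81.3 and 71.2 CPM in young libraries. Here aged replicate 3 was the highest aged library, which was the case for no other of the 9 genes. Means of 18.9 ± 1.59 CPM and 80.8 ± 9.38 CPM left 23.4%, a log2 fold change of -2.10 (SE 0.122).

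Nsg2 (ENSMUSG00000020297, chr11:32000463-32059202, plus strand) encodes a small endosomal protein of neurons. It had 71.2, 72.8 and 59.7 CPM in aged and 185, 219, 179 and 187 CPM in young libraries, from 638 to 815 and 2122 to 3126 reads. With 67.9 ± 7.15 CPM against 193 ± 17.9 CPM, 35.3% of the young level was left. The log2 fold change was -1.50 (SE 0.118).

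Tmem64 (ENSMUSG00000043252, chr4:15265831-15286753, plus strand) is a membrane protein of the endoplasmic reticulum that has been linked to the calcium pump SERCA2. It had 60.7, 62.0 and 53.7 CPM in aged and 168, 192, 147 and 129 CPM in young libraries. This was the smallest difference of the 9 genes, with the lowest young library 2.07 times the highest aged one. Means were 58.8 ± 4.47 CPM and 159 ± 27.5 CPM, a log2 fold change of -1.43 (SE 0.149). Of all genes tested, 179 (1.29%) had a log2 fold change at least as low.

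Lad1 (ladinin 1, ENSMUSG00000041782, chr1:135818598-135833342, plus strand) is an anchoring filament protein of basement membrane. It had 10.8, 13.2 and 8.98 CPM in aged and 40.6, 43.0, 38.1 and 38.3 CPM in young libraries. The young libraries lay within a coefficient of variation of 5.69%, and the aged ones within 19.3%. Means of 11.0 ± 2.11 CPM and 40.0 ± 2.28 CPM left 27.4%, a log2 fold change of -1.87 (SE 0.148).

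**Figure D2:**
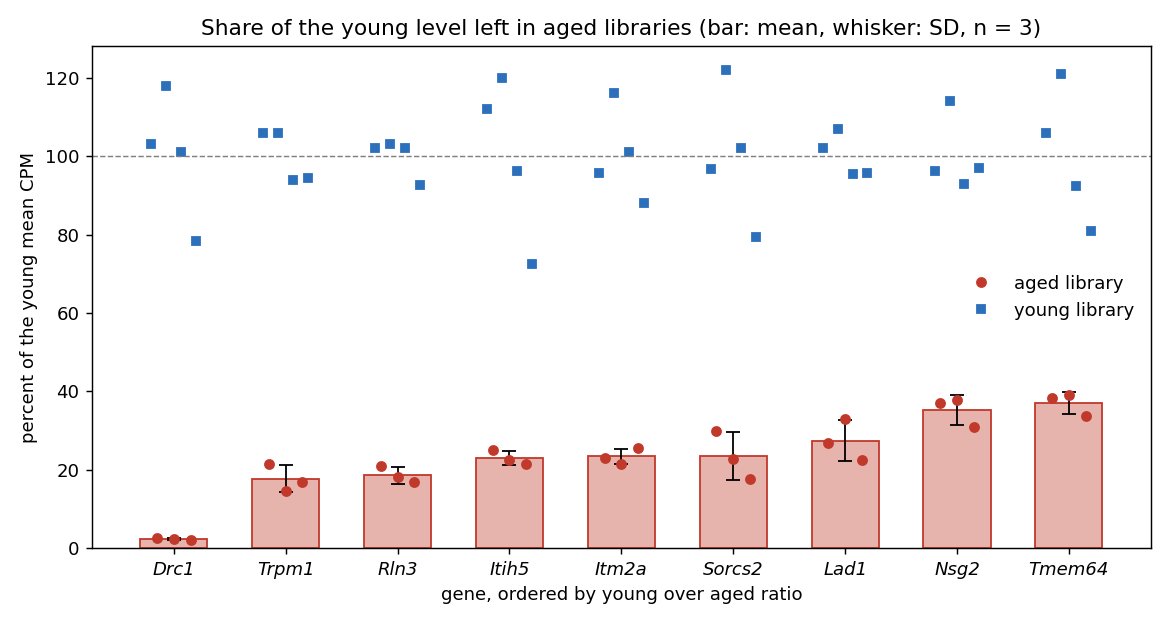
Level of the 9 genes as a percent of the mean young CPM, with the aged mean as a bar, its SD as a whisker (n = 3), aged libraries as red circles and young libraries as blue squares. The bar of Drc1 stands at 2.33%, and those of the other 8 genes between 17.7% and 37.0%.

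Levels were compared between genes only per kilobase of exon. In young Tregs, Itm2a (46.3 ± 5.38 CPM per kilobase), Nsg2 (46.3 ± 4.31) and Rln3 (44.8 ± 2.21) were the highest and lay within their spread of each other. Tmem64 followed at 34.0 ± 5.89, Itih5 at 15.1 ± 3.15 and Lad1 at 11.8 ± 0.67 CPM per kilobase. Drc1 (4.98 ± 0.814) and Sorcs2 (4.26 ± 0.74) again lay within their spread, and Trpm1 was the lowest at 0.747 ± 0.051. Its value depends on the annotation, since the exons of 23 transcripts were joined. Itm2a, Nsg2, Rln3 and Tmem64 thus stood above 90.3% or more of all genes tested in young Tregs.

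In aged Tregs the order per kilobase was led by Nsg2 (16.3 ± 1.72). Tmem64 (12.6 ± 0.958) and Itm2a (10.8 ± 0.913) followed and overlapped, with Itm2a the higher in aged replicate 3, and Rln3 (8.33 ± 0.943) came after them. Itih5 (3.48 ± 0.273) and Lad1 (3.23 ± 0.622) lay within their spread of each other, as did Trpm1 (0.132 ± 0.0257) and Drc1 (0.116 ± 0.0131). Sorcs2 stood between these pairs at 1.00 ± 0.264. Rln3 therefore stood level with Itm2a and Nsg2 in young Tregs and under both in aged Tregs. Drc1 moved from above 48.2% of genes tested to above 0.996%, and Rln3 from above 93.0% to above 61.5%. Nsg2 had the highest level of the 9 in aged Tregs, above 78.2% of genes.

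**Figure D3:**
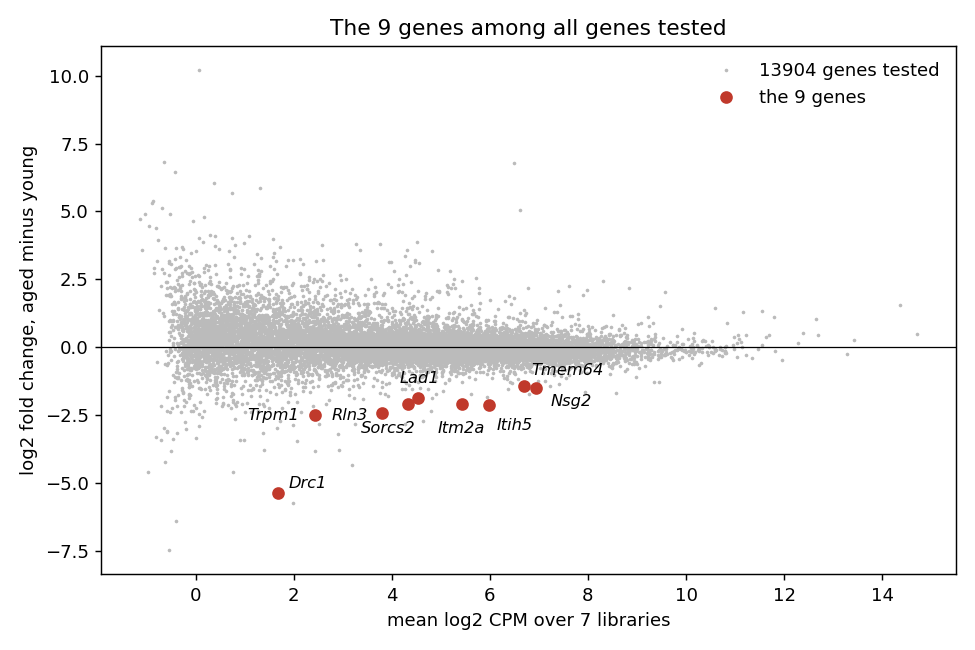
Log2 fold change, aged minus young, against mean log2 CPM over 7 libraries for the 13904 genes tested (grey), with the 9 genes in red. The 9 genes lie at the lower edge of the cloud, with Drc1 at -5.38 and the other 8 between -2.49 and -1.43.

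Young replicate 2 was the highest young library for 8 of the 9 genes, and for 35.8% of all genes tested. Young replicate 4 was the lowest for 6 of the 9, and for 24.5% of all. Among aged libraries, replicate 3 was the lowest for 7 of the 9 (29.1% of all genes) and replicate 1 the highest for 5 (36.6% of all). Young replicate 2 also had the highest summed Treg markers (3050 CPM, against 1840 to 2390 in the other young libraries) and plasma cell markers (1970 against 305 to 482 CPM) and the lowest erythroid markers (12400 against 59900 to 116000 CPM), and their part in this order was not tested. Over the 36 pairs of genes, the correlation of the deviations from the age means over the 7 libraries ran from -0.25 (Lad1 with Itm2a) to 0.968 (Drc1 with Itih5), with a median of 0.558 and 34 pairs above 0. These points share libraries and their scaling, so they are a description.

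Among the 11955 genes whose log2 CPM averaged 1 or more, those whose log2 CPM over the 7 libraries was most like that of each gene were listed, a likeness set largely by the gap between the ages. Rln3 and Itm2a came out as most like Drc1 (Pearson r of 0.9984 and 0.996), followed by Kremen1 (0.9944). For Rln3 these were Drc1, Trpm1 (0.996) and Mark4 (0.9947), and for Trpm1 they were Ddx54 (0.9966), Rln3 and Add3 (0.9947). Itih5 and Tmem64 were near each other (0.9955). Itih5 was also near Kremen1 (0.9938) and Zscan29 (0.9933), and Tmem64 near Dync1i2 (0.9968) and Rnf126 (0.9959). Nsg2 was nearest to Gid4 (0.999), to Lef1 (0.9963), a transcription factor of naive T cells, and to Triobp (0.9951). Lad1 was nearest to Gid4 (0.9957), Rps4l (0.9955) and Triobp (0.9953). Sorcs2 was nearest to 1110032F04Rik (0.9963), Cast (0.9958) and Ldlrad3 (0.9952). Itm2a was nearest to Drc1, Prkar1b (0.9935) and Rln3 (0.9907).

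The depth of the libraries was 10734234 to 11244060 gene counts in aged and 12039894 to 13649310 in young Tregs. Foxp3 averaged 516 CPM in aged and 446 CPM in young Tregs, with an adjusted p-value of 0.409 by edgeR. Of 6 Treg markers 0 passed the edgeR test, with 4 at an unadjusted p-value under 0.05, beside 4540 of the 13904 genes tested. DESeq2 called 3 of the 6 markers and limma voom 1, beside 3804 and 2283 of all genes tested. Among the 4, Il2ra, the gene of the sorted CD25 chain, had a lower mean in aged Tregs (380 against 579 CPM). Ctla4 (768 against 423 CPM), Ikzf2 (488 against 354 CPM) and Tnfrsf18 (113 against 80.2 CPM) had higher means in aged Tregs. Naive T cell markers moved with the 9 genes: Lef1, S1pr1, Ccr7 and Tcf7 were lower in aged Tregs, with log2 fold changes of -1.13, -0.81, -0.77 and -0.43 and adjusted p-values of 0.000617, 0.00513, 0.0213 and 0.0235 by edgeR. Il7r, another marker of these cells, had an adjusted p-value of 0.532. Effector memory markers went the other way, 4 of 6 higher, with sums of 541 to 629 CPM against 240 to 321 CPM. Of 5 tested markers of thymocytes or recent emigrants, Dntt and Ccr9 were lower and Cd1d1 higher. Rag1 had 1, 73 and 8 reads in aged and 220 to 975 in young libraries. It passed the filter on low counts through the young ones, so nothing is read from its call. The sum of this list includes Rag1 and is not given for the same reason. Of other cells, 3 of 6 neutrophil markers were higher (664 to 5220 against 257 to 922 CPM), and 2 of 6 macrophage markers (151 to 221 against 220 to 275 CPM) and 1 of 4 NK cell markers (15.4 to 24.6 against 25.8 to 35.9 CPM) were lower. B cell markers passed the edgeR test in 0 of 6 cases (2 at an unadjusted p-value under 0.05, 2 by DESeq2 and 1 by limma voom), with sums of 834 to 1550 against 1250 to 1900 CPM. Platelet markers were higher in 1 of 4 cases, and T cell and dendritic cell markers each had 1 lower and 1 higher. Of the CD8 T cell (2), plasma cell (5) and erythroid (6) markers 0 passed by edgeR, DESeq2 or limma voom, and 0 had an unadjusted edgeR p-value under 0.05. Erythroid sums ran from 12700 to 157000 CPM in aged and from 12400 to 116000 CPM in young libraries. The part of these cell types in the levels of the 9 genes was not tested.

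Markers of ciliated cells, melanocytes and neurons were mostly at or near 0, while Epcam of the epithelial and Pecam1 of the stromal list were not. For Drc1, the ciliated cell markers Foxj1, Dnah5 and Dnaic1 reached at most 0.403 CPM in any library and Tekt1 had no read. The 6 ciliated cell markers summed to 3.58 to 7.25 CPM in aged and 2.08 to 3.71 CPM in young libraries, and these sums overlapped. Of 2 tested, Cfap126 was higher in aged Tregs by edgeR, and Rsph1 had an adjusted p-value of 0.843. For Trpm1, the melanocyte markers Tyrp1, Dct and Mlana had no read, and Pmel, which carried the list, had an adjusted p-value of 0.788 by edgeR. For Rln3, Sorcs2 and Nsg2, the neuronal markers Snap25, Syt1, Rbfox3 and Stmn2 reached at most 0.35 CPM, and Map2 was higher in aged Tregs. For Lad1, 0 of 3 tested epithelial markers passed by edgeR (2 at an unadjusted p-value under 0.05, 1 by DESeq2 and 0 by limma voom). The 2 were Epcam and Krt18. Krt18 had 12, 8 and 13 reads in aged and 2, 6, 10 and 3 in young libraries. It passed the filter on low counts with the help of its aged libraries, so nothing is read from its test. The epithelial list summed to 20.4 to 29.0 CPM in aged and 14.6 to 19.3 CPM in young libraries, mainly Epcam. For Itih5, 1 of 4 tested markers of the stromal list, Pecam1, was lower by edgeR. The stromal list summed to 121 to 132 CPM in aged and 170 to 196 CPM in young libraries, mainly Pecam1. In young Tregs Pecam1 averaged 178 CPM, and Col1a1, Col3a1, Pdgfra and Dcn averaged 1.88, 2.13, 0.697 and 0.329 CPM. The sum therefore follows Pecam1, and the cells that carried Pecam1 were not determined. Col1a1, Col3a1 and Pdgfra had higher means in aged libraries and did not pass by edgeR (adjusted p = 0.0577, 0.156 and 0.0799), and over the 4 markers DESeq2 called 3 and limma voom 1. Pdgfra had 21, 34 and 12 reads in aged and 3, 17, 6 and 12 in young libraries. It passed the filter on low counts with the help of its aged libraries, so nothing is read from its test.

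Families and known partners of the 9 genes formed a list of 81 genes, chosen by function but with earlier results of these data known. Of these, 71 had a count and 40 could be tested, and 8 of the 40 (20.0%) passed the test by edgeR with Benjamini-Hochberg adjustment, near the 16.7% of all genes. They were 3 lower and 5 higher. The 3 lower include Nyx, which passed the filter on low counts through its young libraries alone, so nothing is read from its call. DESeq2 called 14 of the 40, beside 3804 of the 13904 genes tested, and limma voom 9, beside 2283. The median log2 fold change of the 40 was 0.00518, beside 0.0192 for all genes tested.

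**Figure D4:**
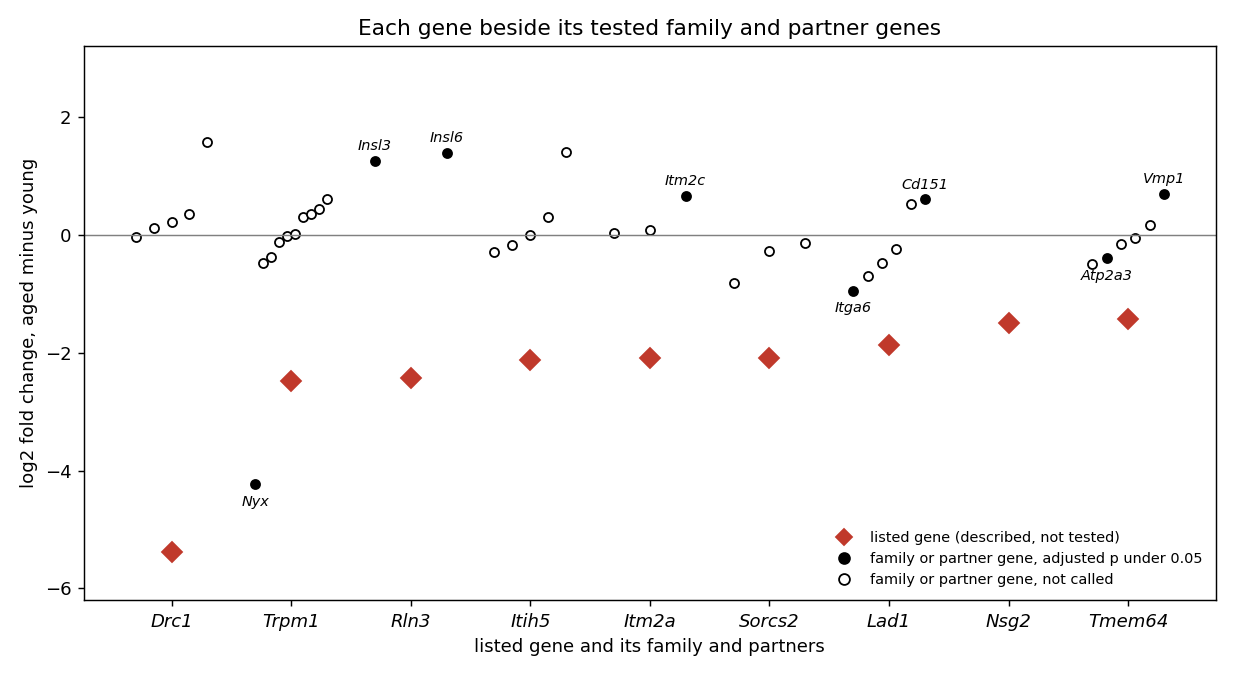
Log2 fold change, aged minus young, of each of the 9 genes (red diamonds, described and not tested) and of its tested family and partner genes (circles, filled where the adjusted p-value was under 0.05). Most family genes lie near 0, 8 are filled, and Nsg2 has no tested relative.

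Of 12 listed subunits and assembly partners of the cilium complex of Drc1, 11 had a count and 5 were tested, and 0 passed the edgeR test, with 1 at an unadjusted p-value under 0.05 and 1 called by DESeq2 and 0 by limma voom. Gas8, another subunit of the complex, had 4.54, 6.24 and 6.74 CPM in aged and 5.77, 6.24, 4.58 and 5.02 CPM in young libraries. Its groups overlapped, with an adjusted p-value of 0.757 by edgeR. The 1 in both cases was Ccdc39, a ruler of axonemal repeats, which had 16, 23 and 47 reads in aged and 10, 8, 19 and 10 in young libraries. It passed the filter on low counts through its aged libraries, so nothing is read from its test. Of the 6 with too few reads to be tested, the subunit gene Drc7 had 5, 1 and 1 reads in aged and 5, 12, 5 and 12 in young libraries, and its groups overlapped.

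Of the relatives of Rln3, Insl6 and Insl3 had enough reads to be tested, and both rose. Insl6 (chr19:29321344-29325356, minus strand) had 8.47, 6.14 and 9.83 CPM in aged and 2.80, 3.29, 2.76 and 3.58 CPM in young libraries, a log2 fold change of 1.39 (SE 0.218, adjusted p = 0.00511 by edgeR). Insl3, a testis hormone, rose from 1.08 ± 0.169 CPM to 2.59 ± 0.725 CPM, a log2 fold change of 1.25 (SE 0.285, adjusted p = 0.0215 by edgeR). The Insl3 value is uncertain, since 64.8% of its exon bases are also exons of Jak3 and strand was not used. Its call was lost without aged replicate 2 (adjusted p = 0.0687), young replicate 3 (0.0546) or young replicate 4 (0.0627). The relaxin receptors Rxfp2, Rxfp3 and Rxfp4 had no count in any library, and Rxfp3 is the known receptor of relaxin 3. Rxfp1, a receptor that also binds relaxin 3, had 5, 4 and 8 reads in aged and 1, 2, 2 and 0 reads in young libraries and was too low to be tested.

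Among 10 tested genes of the Trpm family and the Trpm1 cascade, 1 was lower by edgeR, and DESeq2 and limma voom each called 2. Nyx, the nyctalopin gene (chrX:13466110-13489313, plus strand), whose product is needed to place Trpm1 at the bipolar cell synapse, had 0, 0 and 0.187 CPM in aged and 1.05, 1.26, 1.74 and 1.36 CPM in young libraries. These were 2 aged against 71 young reads. Nyx is the 1 gene called lower, but it passed the filter on low counts through its young libraries alone, so its test is not given and nothing is read from its call. Trpm7, the gene of this list with the highest level per kilobase, had 94.5 CPM in aged and 132 CPM in young Tregs, with an adjusted p-value of 0.0516 by edgeR. Grm6 and Gpr179, other members of the cascade, overlapped between the ages, with adjusted p-values of 0.32 and 0.989.

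For Itih5, 0 of 5 tested relatives and hyaluronan genes passed the edgeR test, with 2 at an unadjusted p-value under 0.05 and 2 called by DESeq2 and 0 by limma voom. The 2 at an unadjusted p-value under 0.05 were Cd44 and Hyal1. Hyal1 had 11, 16 and 11 reads in aged and 9, 2, 5 and 7 in young libraries. It passed the filter on low counts through its aged libraries, so nothing is read from its test. Cd44, the hyaluronan receptor, had 150 CPM in aged and 122 CPM in young Tregs (adjusted p = 0.0888 by edgeR). For Sorcs2, 0 of 3 passed by edgeR, with 0 at an unadjusted p-value under 0.05 and 0 called by DESeq2 or limma voom. Sorl1, a sorting receptor of the same domain family, had 200 CPM against 220 CPM (adjusted p = 0.551 by edgeR). Of the 4 genes listed for Nsg2, only its paralog Nsg1 had a count, with at most 4 reads in a library, so Nsg2 was the expressed member of its family here.

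Of the 6 tested genes of the basement membrane anchoring complex listed with Lad1, 1 fell and 1 rose by edgeR. DESeq2 called 4 of these 6 and limma voom 2, beside 3804 and 2283 of all 13904 genes tested. Itga6, a laminin receptor chain and the gene of this list with the highest level per kilobase, fell to 105 ± 27.3 CPM from 203 ± 24.8 CPM, a log2 fold change of -0.95 (SE 0.18, adjusted p = 0.0106 by edgeR). Cd151, a tetraspanin that binds laminin receptors, rose from 7.77 ± 0.462 to 11.8 ± 1.06 CPM, a log2 fold change of 0.60 (adjusted p = 0.0236 by edgeR). The Cd151 call was lost when any of 5 libraries was left out, aged replicate 2 or 3 or young replicate 1, 3 or 4, with adjusted p-values of 0.0534 to 0.0679. It was also lost with library size only (adjusted p = 0.0595) and with no filter on low counts (0.0527). Plec, which links integrins to the cytoskeleton, had 183 CPM in aged and 296 CPM in young Tregs and did not pass the test (adjusted p = 0.0592 by edgeR).

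Of the paralogs of Itm2a, Itm2c passed the edgeR test and Itm2b did not. Itm2c had 246, 297 and 320 CPM in aged and 177, 229, 161 and 161 CPM in young libraries, and it rose by a log2 fold change of 0.66 (SE 0.154, adjusted p = 0.0231 by edgeR). This call was lost without aged replicate 2 or 3 or young replicate 1, 3 or 4, with adjusted p-values of 0.0565 to 0.0817. Itm2b had 547 CPM in aged and 537 CPM in young Tregs (adjusted p = 0.909). Gata3, a known regulator of Itm2a, had 69.9 CPM against 66.3 CPM (adjusted p = 0.704), with overlapping groups.

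Of the 6 genes tested that were listed with Tmem64, 1 rose and 1 fell by edgeR, and DESeq2 and limma voom each called 2. Vmp1, an autophagy protein with a related membrane domain, rose from 62.7 ± 5.53 CPM to 101 ± 18.3 CPM, a log2 fold change of 0.69 (SE 0.136, adjusted p = 0.0126 by edgeR). Atp2a3, which encodes the calcium pump SERCA3, fell from 443 ± 22.8 to 335 ± 14.2 CPM, a log2 fold change of -0.40 (SE 0.0995, adjusted p = 0.0289 by edgeR). The Atp2a3 call was lost without aged replicate 2 or 3 or young replicate 1, 3 or 4, with adjusted p-values of 0.0607 to 0.086. The calls of Insl6, Itga6 and Vmp1 were kept in 7 of 7 fits with 1 library left out. Atp2a2, which encodes SERCA2, had 131 CPM in aged and 147 CPM in young Tregs (adjusted p = 0.455 by edgeR).

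The chromosomal neighbours of the 9 genes were compared to see whether the lower levels extended along the chromosome. The 2 nearest tested genes on each side of every gene gave 36 neighbours, with starts 2.41 to 1430 kb away. Of these, 6 passed the edgeR test, 4 lower and 2 higher, which is 16.7% beside 16.7% of all genes tested. An unadjusted edgeR p-value under 0.05 was found for 15 of the 36, beside 4540 of the 13904 genes tested. DESeq2 called 11 of the 36 and limma voom 5, beside 3804 and 2283 of all genes tested. The 6 lie near Rln3, Itih5, Lad1 and Nsg2. For Drc1, 0 of 4 neighbours passed by edgeR or had an unadjusted p-value under 0.05, and DESeq2 and limma voom called 0. For Trpm1, Sorcs2, Itm2a and Tmem64, 0 of 4 neighbours each passed by edgeR, but 2, 3, 2 and 1 had an unadjusted p-value under 0.05. DESeq2 called 1, 1, 2 and 1 of their neighbours, and limma voom 0, 0, 1 and 0.

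Around Rln3, neighbouring genes did not share its lower level. Il27ra begins 0.34 kb beyond the end of Rln3 on the same strand, and it averaged 234 ± 24.0 CPM in aged and 214 ± 16.5 CPM in young Tregs (adjusted p = 0.445 by edgeR). Palm3 (chr8:84021471-84030295, plus strand), whose start lies 23.5 kb from that of Rln3, had 32.8, 36.5 and 37.2 CPM in aged and 13.5, 12.4, 13.3 and 12.6 CPM in young libraries. It rose by a log2 fold change of 1.45 (SE 0.105, adjusted p = 0.00033 by edgeR), opposite to Rln3.

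Near Itih5, both downstream neighbours fell. Sfmbt2, a polycomb protein gene (chr2:10370510-10595253, plus strand) with a start 217 kb away, had 5.07, 4.13 and 3.28 CPM in aged and 12.2, 12.7, 12.6 and 8.24 CPM in young libraries, a log2 fold change of -1.45 (SE 0.23, adjusted p = 0.00522 by edgeR). Prkcq, the protein kinase C theta of T cell receptor signalling, 1020 kb away, fell to 179 ± 32.7 from 266 ± 19.7 CPM (log2 fold change -0.57, adjusted p = 0.0274 by edgeR). Palm3 and Sfmbt2 passed the test when any 1 library was left out, while Prkcq passed in 1 of 7 such fits, without aged replicate 1, and had adjusted p-values of 0.0507 to 0.0754 in the other 6.

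**Figure D5:**
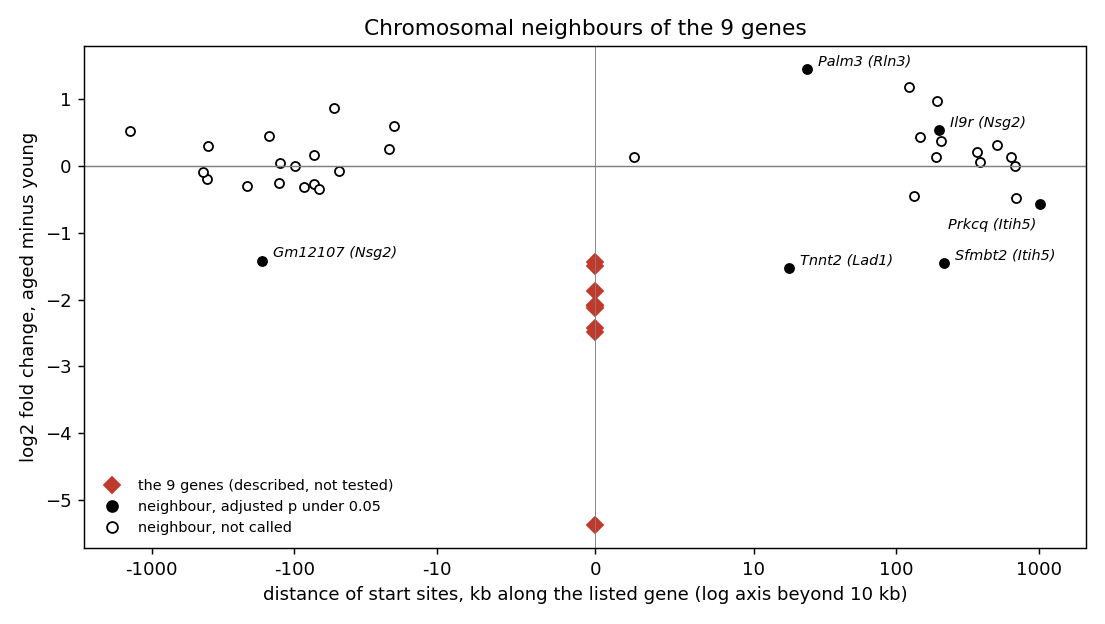
Log2 fold change, aged minus young, of the 36 neighbouring genes against the distance between start sites in kb along each listed gene (log axis beyond 10 kb), with filled circles where the adjusted p-value was under 0.05. The 9 genes stand at 0 as red diamonds, all under the neighbours except Tmem64 and Nsg2, whose values lie among the lowest neighbours.

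Tnnt2, the cardiac troponin T gene, which begins 3.01 kb beyond the end of Lad1 on the same strand, had 0.874, 1.41 and 1.22 CPM in aged and 4.63, 2.66, 4.26 and 2.01 CPM in young libraries (log2 fold change -1.53, adjusted p = 0.0283 by edgeR). It passed in 2 of 7 fits with 1 library left out, without young replicate 2 or 4, and the adjusted p-value of the others was 0.0524 to 0.0829. With limma voom the Tnnt2 call was also lost (adjusted p = 0.057). Gm12107, upstream of Nsg2, had 18 to 30 reads in young and 6 to 9 in aged libraries. It is counted among the 6, but it too passed the filter on low counts through its young libraries, and nothing is read from its call. Il9r, the interleukin 9 receptor gene, whose start lies 200 kb from that of Nsg2, rose from 26.1 ± 2.32 to 37.7 ± 7.54 CPM (log2 fold change 0.53, adjusted p = 0.0436 by edgeR), a call kept in 1 of 7 such fits, without aged replicate 3, with adjusted p-values of 0.0683 to 0.125 in the other 6. The Il9r call was also lost with limma voom (adjusted p = 0.0501), with library size only (0.0647) and with no filter on low counts (0.0534).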

How the data were processed

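RNA of CD4+CD25+ splenocytes from 3 aged and 4 young mice was measured with SMART-Seq v4 cDNA libraries, which carry no molecular identifiers. The authors deposited raw read counts per Ensembl gene for each library, in the layout of HTSeq (union mode, strand not used by their naming), with build mm10 in the submitters' processing notes. The aligner is not given in the sources used here. Reads without a gene or with an ambiguous one (13.06% to 20.87%) were left out. The authors also deposited 1 table with signal values, checked to equal the count over 1 constant per library, and with gene symbols. Its remaining columns hold the authors' own log2 fold change and standard error on the log2 scale, and their p-value and adjusted p-value, and were not used.

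The quasi-likelihood test of edgeR 4.0.16 (R 4.3.3) compared the counts after TMM scaling and the filterByExpr filter, without covariates and with Benjamini-Hochberg adjustment over 13904 genes and a threshold of 0.05. The study's methods name limma, so limma 3.58.1 (voom) was an alternative, beside DESeq2 1.42.0, other normalizations and filters, a replicate block and leaving out each library. CPM were TMM-scaled and are given as mean ± SD, and log2 CPM used a prior count of 2. Each standard error was derived from the log2 fold change and its F statistic. The test was checked on simulated data. Total gene counts were 10734234 to 13649310, and after TMM scaling 3 reads stood at 0.21 to 0.302 CPM. Replicates differed by more than sampling noise (chi-square of 8.7 to 183 per degree of freedom). Coordinates and exon lengths come from GENCODE M21 (GRCm38) by gene identifier, and promoters are from RefSeq on GRCm38.p6.

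The 9 genes and the lists of families, neighbours and markers were chosen with earlier results of these data known. Named are the 9 genes, each listed family or neighbouring gene under the threshold, the family gene with the highest level, genes with overlapping exons, and for each of the 9 the 3 genes with the highest Pearson correlation. Further genes named without passing the test were added after their values were seen. One naive T cell marker and the sum of its list are not reported here.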

Additional observations from a re-analysis of the deposited data

Results flagged for a closer look

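In 2 cases the gap between 1 young library and the other 3 was large beside the spread of those 3. Rln3 had 26.3 CPM in young replicate 4 and 29.1 CPM in each of the others, so that the gap took 0.969 of the range, past Dixon's 95% limit for 4 samples. Young replicate 4 still stood at 92.6% of the young mean of Rln3, and the others lay unusually close together. Sfmbt2, a neighbour of Itih5, had 8.24 CPM in young replicate 4 and 12.2 to 12.7 CPM in the others, a gap of 0.899 of the range. Chance marks about 1 in 20 groups in this way. Without young replicate 4, the log2 fold change of Rln3 was -2.46 and that of Sfmbt2 -1.58 (adjusted p = 0.00756 by edgeR).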

How the results depend on the processing

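The median log2 fold change of the 9 genes was -2.10 and lay between -2.20 and -2.02 over 16 alternatives, with all 9 lower in each (with at least 10 counts in every library, Drc1 was not tested and 8 were). The 2327 genes, 8 family genes and 6 neighbours that passed the test became 3804, 14 and 11 with DESeq2 on the filtered genes, and 2910, 12 and 9 with DESeq2 on every gene with a count, a setting chosen after seeing the data. The cause was not tested. With the replicate number as a block they were 292, 0 and 2 in edgeR, with 12 of the 40 family genes at an unadjusted p-value under 0.05. Same-numbered libraries did not deviate together (r of -0.0915, -0.292 and -0.138), so the numbers do not pair the samples. Leaving out 1 library gave 1237 to 3058 genes, 4 to 14 family genes and 2 to 8 neighbours. Genes numbered 1262 without aged replicate 3, 1315 without young replicate 1, 1270 without young replicate 3 and 1237 without young replicate 4. The count of family genes was 14 without aged replicate 1, 5 without aged replicate 2 or young replicate 1 and 4 without young replicate 3 or 4. Neighbours numbered 2 without aged replicate 2 and 3 without young replicate 1, 3 or 4. Family genes, 3 lower and 5 higher in the main fit, were 8 lower and 6 higher without aged replicate 1. No log2 fold change of the 9 genes, or of a family or neighbouring gene that passed the main test, changed direction. Depth limits Drc1 in aged libraries, where it had 3 or 4 reads, and Nyx.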
